A study of Homo sapiens with 14 samples.

Results

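AJAP1, VWA3A, KLHL1 and PLCL1 were next to silent in CHP-134 neuroblastoma cells that expressed EGFP and were clearly transcribed in cells that expressed OmoMYC. These 4 genes of the 17810 in the count table of the engineered lines were chosen by that difference: they had 0 to 6 counts in each EGFP library and over 100-fold more in the OmoMYC libraries. The values that chose them are therefore given below as a description, with no test. The second count table, of parental cells, was not used in the choice. It holds 19143 genes, among them all 4.

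CHP-134 is a cell line from a human neuroblastoma, with amplification of MYCN, the gene of the transcription factor N-MYC. OmoMYC is a fragment of MYC with altered zipper residues, which takes up the dimerization partners of MYC proteins, and the study induced it to find genes that N-MYC regulates. RNA depleted of ribosomal RNA was sequenced from 3 EGFP and 3 OmoMYC cultures, and from parental cells in 4 DMSO and 4 dTAG47 cultures. The EGFP and OmoMYC cells had been transduced with a Tet-inducible lentiviral vector carrying 1 of these transgenes and selected with G418, with no picking of clones described, and both were given 1 µg/ml doxycycline for 3 days in medium with tetracycline-approved serum. The parental cells carried no transgene, were kept in normal serum and received DMSO or 500 nM dTAG47 for 18 h. dTAG47 is a molecule that directs FKBP12(F36V)-tagged proteins to degradation, and the parental cells have no tagged protein. EGFP and OmoMYC were carried by separately transduced cells, so that a difference between the lines and an effect of the transgene cannot be told apart.

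The proteins of the 4 genes do not belong to a common pathway. AJAP1 encodes an adherens junction associated membrane protein that also binds the GABAB receptor, VWA3A a little-studied protein with von Willebrand factor A domains that is expressed in tissues with motile cilia, KLHL1 a neuronal actin-binding Kelch-like protein that modulates calcium channels, and PLCL1 a phospholipase C relative without catalytic activity that binds inositol phosphates and takes part in the traffic of GABAA receptors. MYC proteins bind DNA with MAX at E-boxes, of which CACGTG is the canonical form, and are known both to activate genes and, through other factors at promoters, to repress them.

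The genes lie on separate chromosomes. In hg19, AJAP1 spans chromosome 1 from 4714669 to 4852594 on the plus strand, and VWA3A chromosome 16 from 22103859 to 22168285, also on the plus strand. PLCL1 spans chromosome 2 from 198669317 to 199437305 on the plus strand, a length of 768.0 kb. KLHL1 spans chromosome 13 from 70274726 to 70682625 on the minus strand, a length of 407.9 kb. Its start overlaps the antisense gene ATXN8OS by 1281 bases. ATXN8OS has no entry in either table, and since the sources used here do not say whether reads were counted by strand, reads of KLHL1 and of ATXN8OS in that stretch cannot be told apart. AJAP1 and PLCL1 likewise contain antisense noncoding genes that have no entry, and VWA3A overlaps no other annotated gene.

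Because MYC proteins act at promoters, the 250 bases before the start of each gene are shown where the RefSeq table of promoters (GRCh38.p14) has an entry, which it does for 3 of the 4 genes. They are written from 5′ to 3′ on the strand of the gene, and capitals mark every CANNTG, the general E-box. The AJAP1 sequence is chr1:4654359-4654608 (+), that of KLHL1 is chr13:70108453-70108702 (-), and that of PLCL1 is chr2:197804343-197804592 (+).
AJAP1: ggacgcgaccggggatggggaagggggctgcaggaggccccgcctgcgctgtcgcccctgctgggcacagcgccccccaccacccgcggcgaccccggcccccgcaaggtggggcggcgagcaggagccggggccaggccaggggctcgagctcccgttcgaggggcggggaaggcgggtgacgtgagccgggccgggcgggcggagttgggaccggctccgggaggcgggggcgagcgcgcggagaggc
KLHL1: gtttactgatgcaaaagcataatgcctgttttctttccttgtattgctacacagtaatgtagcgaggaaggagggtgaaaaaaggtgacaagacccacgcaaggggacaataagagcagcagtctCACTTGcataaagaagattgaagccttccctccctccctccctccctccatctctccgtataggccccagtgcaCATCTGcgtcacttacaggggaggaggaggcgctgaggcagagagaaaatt
PLCL1: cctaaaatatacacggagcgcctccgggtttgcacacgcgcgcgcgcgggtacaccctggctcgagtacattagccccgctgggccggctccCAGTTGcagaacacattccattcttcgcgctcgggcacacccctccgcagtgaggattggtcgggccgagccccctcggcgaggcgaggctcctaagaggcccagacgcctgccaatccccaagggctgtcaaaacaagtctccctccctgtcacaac
None of the 3 windows held CACGTG, which occurred in 6.34% of the 35116 windows of this length in the table. CANNTG, which includes CACGTG, was in 61.8% of all windows. It occurred at 2 places in the KLHL1 window, at 1 in the PLCL1 window and at 0 in the AJAP1 window. The noncanonical form CACGCG, read on both strands, was in 9.72% of windows and among the 3 genes at 1 place, before PLCL1. CCAAT, on both strands, was in 32.0% of windows and occurred at 2 places before PLCL1 and at 0 before the other two. The windows also differed in base composition. The AJAP1 window was 80.8% G and C with 32 CpG dinucleotides, more than 90.5% of all windows, the PLCL1 window was 64.0% G and C with 22 CpG, and the KLHL1 window was 49.6% G and C with 5 CpG, against medians of 58.0% and 11 CpG over all windows. The 3 genes thus shared neither an E-box of 1 sequence nor a base composition in these windows.

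Levels are given in CPM, a gene's count scaled to a library total of 1000000 counts. The totals ranged from 28060817 to 38358128 counts in the engineered lines and from 40861430 to 53451641 in the parental cells, so that 1 count was worth at most 0.0356 CPM. The level of MYC was 0.607 ± 0.070 CPM (SD, n = 3) in the EGFP libraries and 525 ± 9.61 CPM in the OmoMYC libraries, and reads of the OmoMYC transgene, which derives from MYC, cannot be told apart from those of MYC itself. MYCN had 2699 ± 274 and 2251 ± 72.9 CPM. Of 9 markers of sympathetic neuroblasts, 7 had at least 1 CPM with EGFP, and HAND2 (256 and 276 CPM with EGFP and OmoMYC) and GATA3 (301 and 325 CPM) were high in both lines. TH (0.237 and 0.773 CPM) and DBH (0.402 and 1.16 CPM) were below 1 CPM with EGFP. The neuroblast markers summed to 1479 to 1814 CPM in the EGFP libraries and 1769 to 1898 CPM in the OmoMYC libraries. By the test described below for gene lists, 5 of the 9 rose, TH and DBH among them, and 0 fell. TH and DBH, at 0.178 and 0.172 CPM in their lowest EGFP libraries, passed the filter on low counts (0.337 CPM) only with their OmoMYC libraries. Their rises are therefore a description. Over all genes tested, 27.3% rose and 25.7% fell. The 8 mesenchymal markers summed to 485.9 to 513.4 and 401.5 to 414.1 CPM (1 rose and 3 fell), and the 6 Schwann or glial markers to 5.97 to 9.04 and 7.27 to 8.06 CPM, with 1 of the 6 at or above 1 CPM in either line and SOX10, a defining marker, at 0.852 and 0.856 CPM. The part of these shifts in the results on the 4 genes was not tested. In bulk RNA, more cells that express a gene and more RNA per cell cannot be told apart.

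All 4 genes passed the filter on low counts in the engineered lines through their OmoMYC libraries alone. AJAP1 counts were 0, 0 and 1 in the EGFP libraries and 799, 832 and 654 in the OmoMYC libraries. As CPM the OmoMYC libraries had 27.3, 21.7 and 21.7, a mean of 23.6 ± 3.22 CPM (SD, n = 3), and replicate 1 was the highest. The ratio of the summed counts over the summed library totals was 2083, with an exact 95% interval of 374 to 82320. This interval, like those below, covers counting error only, and its width comes from the single count in the EGFP libraries.

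VWA3A had 1, 0 and 3 counts with EGFP and 1174, 1445 and 1048 with OmoMYC. The OmoMYC libraries had 40.1, 37.7 and 34.8 CPM (37.5 ± 2.66, SD, n = 3). The ratio over the totals was 836 (95% interval 326 to 3069), and 3 of the 4 EGFP counts came from replicate 3.

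KLHL1 had 1, 0 and 0 counts with EGFP and 384, 407 and 299 with OmoMYC. The OmoMYC libraries had 13.1, 10.6 and 9.92 CPM (11.2 ± 1.68, SD, n = 3). The ratio was 994 (95% interval 178 to 39290), again against a single EGFP count.

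PLCL1 was detected in every EGFP library, with 6, 5 and 4 counts or 0.168 ± 0.027 CPM (SD, n = 3). In the OmoMYC libraries it had 1464, 1905 and 1463 counts, which came to 49.99, 49.7 and 48.5 CPM (49.4 ± 0.755). The ratio was 294 (95% interval 178 to 525), the smallest of the 4 ratios and the one with the narrowest interval. Since PLCL1 had counts in all libraries, its fold change fitted by edgeR was the most stable as well, at 8.15 ± 0.14 (SE) on the log2 scale. The fitted values of AJAP1 (10.58 ± 0.32), VWA3A (9.57 ± 0.25) and KLHL1 (9.51 ± 0.37) depend on the prior count that edgeR adds to groups near 0. Each edgeR SE in this text is the log2 fold change divided by the square root of the F statistic of its test. DESeq2, a second method, gave larger SEs of 1.19 for AJAP1, 0.73 for VWA3A, 1.19 for KLHL1 and 0.38 for PLCL1. The edgeR SEs of these 4 genes are therefore not to be read as the precision of their fold changes.

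**Figure D1:**
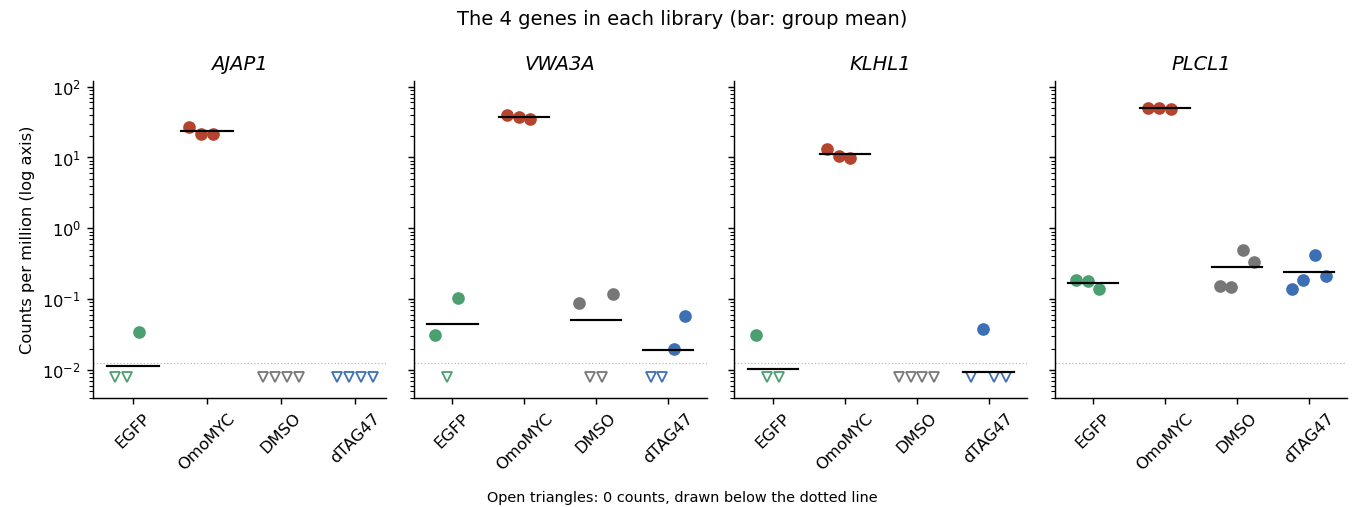
CPM of AJAP1, VWA3A, KLHL1 and PLCL1 in each of the 14 libraries on a log axis, with a bar at the group mean and open triangles for libraries with 0 counts, drawn below the dotted line at no measured height. The 3 OmoMYC libraries of every gene sit between 9.92 and 49.99 CPM, and no library of another group reaches 0.5 CPM.

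The intervals of the 4 ratios overlapped, which by itself does not decide their order, and the ratios were not tested against each other. To compare the genes with each other, the OmoMYC levels were divided by the length of all annotated exons of each gene. Per kilobase of exon, VWA3A was highest at 7.45 ± 0.528 CPM (SD, n = 3), followed by PLCL1 at 6.09 ± 0.093, KLHL1 at 2.70 ± 0.404 and AJAP1 at 1.88 ± 0.257. The ranges of VWA3A and PLCL1 over the 3 libraries did not overlap, and neither did those of KLHL1 and AJAP1. The exon length of AJAP1, 12528 bases, counts every annotated isoform, so its level per kilobase is low where a short isoform is used. In the OmoMYC libraries these levels exceeded those of 61.0% (VWA3A), 55.5% (PLCL1), 36.9% (KLHL1) and 30.5% (AJAP1) of 13499 tested genes with a known length, for which the median was 4.91 CPM per kilobase. By these exon lengths, VWA3A and PLCL1 had come from next to nothing to levels above that of the median gene, and KLHL1 and AJAP1 to levels below it. The place of AJAP1 depends on the isoform used, which was not tested.

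The 4 genes did not vary in the same measure among the OmoMYC cultures. The coefficient of variation of the CPM was 13.7% for AJAP1, 14.97% for KLHL1 and 7.09% for VWA3A, but 1.53% for PLCL1. OmoMYC replicate 1 was highest for all 4, at 116% of the OmoMYC mean for AJAP1, 117% for KLHL1, 107% for VWA3A and 101% for PLCL1. MYC, which includes the reads of the transgene, was lowest in that library, at 97.9% of its mean. With 3 libraries no test of this order can reach a p below 0.05.

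**Figure D2:**
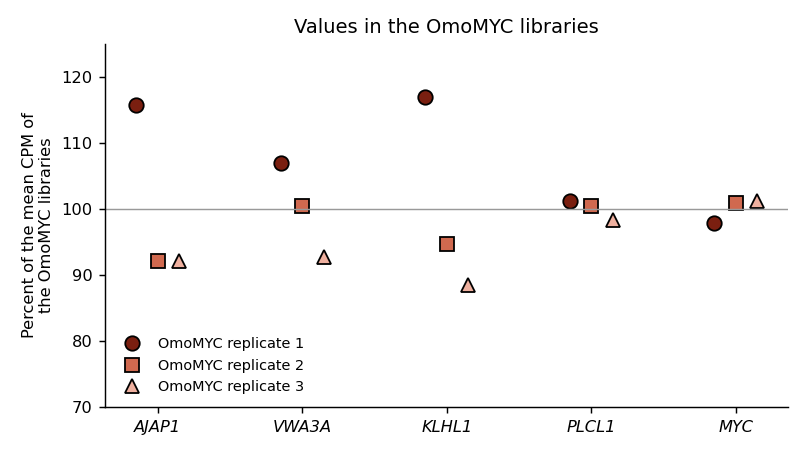
CPM of the 4 genes and of MYC in each OmoMYC library as a percentage of the mean of the 3 OmoMYC libraries, with 1 symbol per replicate. Replicate 1 lies at 116% and 117% for AJAP1 and KLHL1 and at 97.9% for MYC, and the PLCL1 libraries lie within 98.3% to 101%.

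The parental cells show whether the genes are silent in CHP-134 cells that were not engineered. AJAP1 had 0 counts in all 8 parental libraries, out of 384281078 counts in all, with an exact 95% interval that reaches up to 0.0096 CPM. KLHL1 had 2 counts, both in dTAG47 replicate 2, and 0 in the other 7 libraries. VWA3A had 4, 0, 0 and 6 counts in the DMSO libraries and 0, 0, 1 and 3 in the dTAG47 libraries, a rate of 0.0364 CPM over all 8 (95% interval 0.0199 to 0.0611). PLCL1 was again the gene that was detected throughout, with 7, 7, 20 and 17 counts in the DMSO libraries and 6, 10, 21 and 11 in the dTAG47 libraries, from 0.140 to 0.490 CPM. The 4 genes were therefore near 0 in the parental cells as in the EGFP cells. The tables come from separate experiments with different serum and treatment times, so no test was made between them. MYCN had 2699 CPM with EGFP and 2688 CPM with DMSO, but some genes differed widely. JUP had 0 to 2 counts with EGFP and 830 to 1105 with DMSO, and GABBR1, under the same identifier, 0 to 1 and 579 to 740. Whether such differences lie in the cells or in the counting was not tested.

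Within the parental cells, dTAG47 was compared with DMSO, a comparison that had no part in the choice of the genes. Of 14470 genes tested by edgeR's quasi-likelihood test with Benjamini-Hochberg adjustment at an FDR of 0.05, 0.117% rose and 0.0415% fell. PLCL1 was the gene among the 4 that passed the filter on low counts, and the fitted change was -0.19 ± 0.43 (SE) on the log2 scale, with an adjusted p of 0.90 (edgeR, n = 4 and 4). Without DMSO replicate 3, the highest library, the sign turned to 0.18 (adjusted p = 0.88). VWA3A, below the filter, had 0.0510 ± 0.0602 CPM (SD, n = 4) with DMSO and 0.0193 ± 0.0271 CPM with dTAG47 (2-sided exact permutation p = 0.43; the smallest this design allows is 0.0286). KLHL1 had counts in 1 library, which fixes the outcome of this permutation test in advance, so it decides nothing there. For AJAP1, at 0 throughout, no test was possible. A change of PLCL1 or VWA3A with dTAG47 was not detected, and small changes lie beyond the reach of these counts.

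PLCL1 differed more between pairs of parental replicates than between treatments. Replicates 1 and 2 had 0.139 to 0.187 CPM over both treatments, and replicates 3 and 4 had 0.211 to 0.490 CPM, so that these pairs did not overlap. In replicates 1 and 2 the mean was 0.150 CPM with DMSO and 0.163 CPM with dTAG47. In replicates 3 and 4 it was 0.411 and 0.314 CPM. What sets replicates 3 and 4 apart is not given in the labels, and this split was noticed in the data.

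To place the 4 genes among other silent ones, all genes with 0 to 6 counts in each EGFP library were listed, and the ratio of the mean CPM was taken with 0.5 counts added to every library. Of 3456 such genes, 2847 also had 0 to 6 counts in every OmoMYC library, and the median ratio was 1.37. The ratio was over 10 in 87 genes (2.52%) and over 100 in 7 (0.203%). AJAP1 (832), VWA3A (608), KLHL1 (411) and PLCL1 (268) had the highest ratios. These shares describe the rule that chose the 4 genes and are no support for it.

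The limit of 100 was also passed by genes outside the 4. BCAM, a laminin-binding cell adhesion molecule, had a ratio of 108, with 4, 3 and 1 counts in the EGFP libraries and 397, 428 and 286 in the OmoMYC libraries. COMP, a cartilage matrix protein, had a ratio of 103, with 0, 1 and 2 counts against 199, 168 and 144. Just below the limit stood ADAMTSL3, a secreted matrix protein, with a ratio of 99.4 (265 to 399 counts with OmoMYC), and OPCML, a neuronal adhesion molecule, with 83.7 (145 to 212 counts). CAMK1G, a calmodulin-dependent kinase, followed at 67.7, TNNI1, the slow skeletal troponin I, at 53.4, and TRPC4, a cation channel, at 51.6. Ratios of 103 and 99.4 thus lay on either side of the limit of 100, with no gap between them.

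The reverse case was rarer. Of 3024 genes with 0 to 6 counts in each OmoMYC library, 3 (0.0992%) had a ratio of EGFP over OmoMYC above 10 and 0 above 100. The largest was 13.0, for AC017081.1, with counts of 0, 0 and 39 in the EGFP libraries, so that a single library made its value.

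**Figure D3:**
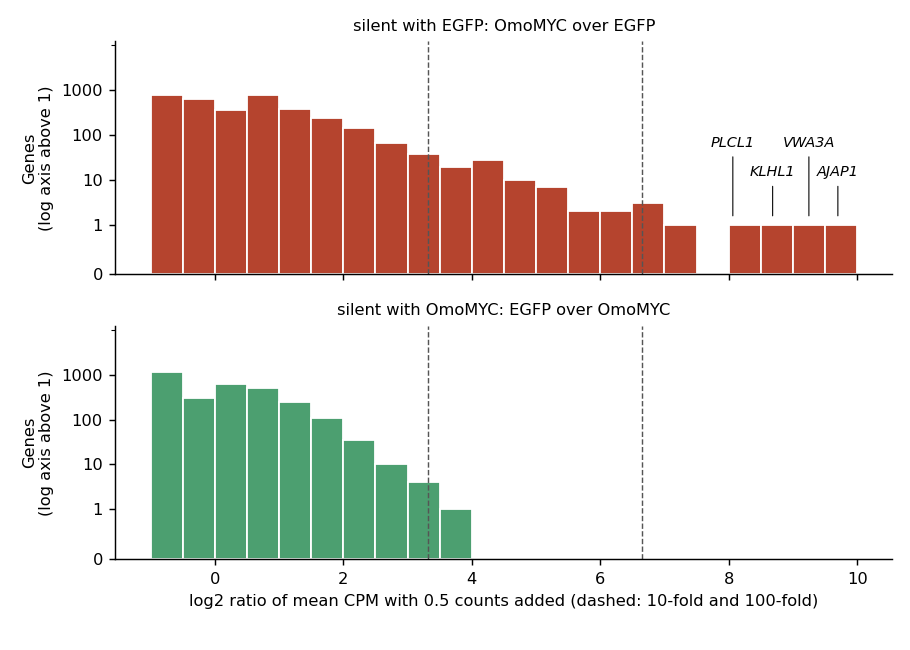
Number of genes by log2 ratio of mean CPM with 0.5 counts added, for 3456 genes with 0 to 6 counts in each EGFP library (upper panel, OmoMYC over EGFP) and 3024 genes with 0 to 6 counts in each OmoMYC library (lower panel, EGFP over OmoMYC). The vertical axis is logarithmic above 1, the first bar holds all ratios below its upper edge, and dashed lines mark 10-fold and 100-fold. The upper panel reaches past 100-fold with 7 genes, while the largest ratio in the lower panel is 13.0.

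Of the 87 genes with a ratio over 10, 82 were also in the table of parental cells. In 70 of these 82, no parental library exceeded 0.214 CPM, the level of 6 counts in the smallest EGFP library. PLCL1 was among the 12 that did, through replicates 3 and 4. BCAM and COMP each had at most 2 counts in any parental library. The 82 genes with a known position lay on 20 chromosomes.

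Likeness of pattern was measured over all 14 libraries as the root mean square difference in log2 CPM, with a prior count of 2, among 17227 genes in both tables. KLHL1 was the gene nearest to AJAP1, at 0.609, and AJAP1 the nearest to KLHL1 and to VWA3A (0.820). Among other genes, BCAM was near VWA3A, at 1.10, and ADAMTSL3 and BCAM were next for KLHL1, at 0.630 and 0.690. PLCL1 was nearer to genes that are a little more than silent: DSCAM (0.709), an adhesion molecule of neurons with 6 to 10 counts with EGFP and 1154 to 1359 with OmoMYC, CPS1 (1.02), a urea cycle enzyme, and PYY (1.12), a gut peptide. AJAP1 was thus nearest to both KLHL1 and VWA3A, by values that include those that chose them. VWA3A and KLHL1 lay 1.17 apart, farther than BCAM lay from either, so AJAP1, VWA3A and KLHL1 were no group set off from other genes. PLCL1 stood apart from these genes by its counts in the EGFP and parental libraries.

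The next question was whether the genes around the 4 changed with them. For this and for the lists below, OmoMYC was tested against EGFP over all 13803 genes that passed the filter, of which 27.3% rose and 25.7% fell (edgeR, FDR 0.05), and the median change was 0.01 on the log2 scale. Of 30 genes in the table that start within 1 Mb of the start of AJAP1, VWA3A or PLCL1, 23 were tested, and 0 rose and 8 fell. At an unadjusted p below 0.05 the counts were 0 and 9, and DESeq2 called 0 and 9. KLHL1 has no gene of the table within 1 Mb. The neighbours within 1 Mb that were not tested were below the filter on low counts, and their counts follow.

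Around VWA3A, the 11 genes tested had log2 fold changes from -0.57 to 0.38. EEF2K, the kinase of elongation factor 2, whose start lies 113.7 kb downstream, fell by 0.57 (SE 0.08, adjusted p = 1.7e-04), and UQCRC2, a subunit of respiratory complex III, fell by 0.30 (SE 0.08, adjusted p = 0.0075). C16orf52, 84.9 kb upstream, did not pass (0.14 on the log2 scale, adjusted p = 0.44), and SDR42E2, the next gene downstream, had 0 to 4 counts with EGFP and 8 to 18 with OmoMYC, below the filter. TMEM159, which belonged to the 87 genes with a ratio over 10, had 0 to 1 counts with EGFP and 8 to 10 with OmoMYC. DNAH3 had 0 to 5 and 6 to 18 counts, OTOA 1 to 3 and 5 to 8, and CRYM 0 to 1 and 0. Around PLCL1, C2orf66, below the filter, had 2 to 5 counts with EGFP and 3 to 14 with OmoMYC. BOLL, which starts 17.83 kb upstream, had 0 counts in every EGFP library and 0 to 4 with OmoMYC. MARS2 (27.1 and 27.2 CPM with EGFP and OmoMYC) and RFTN2 (0.767 and 0.829 CPM), the next upstream, did not pass the test, with adjusted p of 0.94 and 0.76, and the chaperonin genes HSPD1 and HSPE1, 287.9 and 304.5 kb away, fell by 0.54 and 1.12 on the log2 scale (adjusted p = 7.1e-04 and 0.0030).

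The nearest genes of AJAP1 and KLHL1 lie far off. C1orf174 and DFFB, 897.8 and 940.8 kb upstream of AJAP1, did not pass the test (adjusted p = 0.12 and 0.13). On the other side, KCNAB2, a potassium channel subunit, and CHD5, a neuronal chromatin remodeler, rose by 0.75 ± 0.09 and 1.397 ± 0.137 (log2, SE) at distances of 1336 and 1526 kb, and NPHP4 by 0.43 ± 0.11 (adjusted p = 9.9e-05, 2.3e-05 and 0.0082). PCDH9, a protocadherin and the first gene downstream of KLHL1, starts 2878 kb away and rose from 13.7 to 93.3 CPM (log2 fold change 2.75 ± 0.08, SE, adjusted p = 1.5e-09). PCDH20 beyond it rose by 1.56 ± 0.13 (adjusted p = 7.3e-06), whereas MZT1, BORA and DIS3 upstream of KLHL1, at 2619 to 2674 kb, fell by 1.26, 0.80 and 0.24 (adjusted p = 3.5e-04, 1.8e-04 and 0.030).

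**Figure D4:**
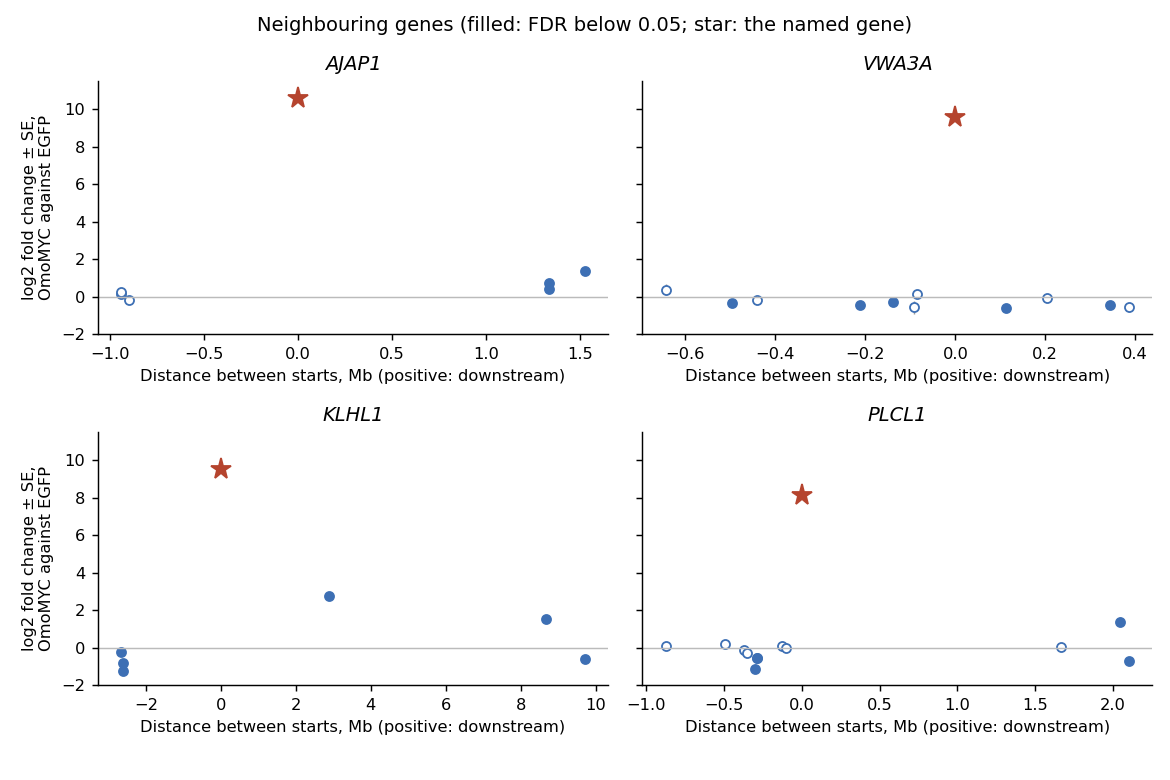
Log2 fold change of tested neighbouring genes, OmoMYC against EGFP, by the distance in Mb between their start and that of the named gene (positive is downstream), with the SE, which is often smaller than the point. Filled points passed an FDR of 0.05 and the star is the named gene. The tested genes within 1 Mb lie between -1.12 and 0.38, and the highest tested neighbour is PCDH9 at 2.75, 2878 kb from KLHL1.

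Relatives and partners of the 4 proteins were then described in 7 gene lists, beside the 27.3% and 25.7% of all tested genes. Over all lists, 31 of 99 tested genes rose (31.3%) and 21 fell (21.2%). KLHL30, FOXJ1 and GABRB1 are among the 31 but passed the filter on low counts, at 0.337 CPM, through their OmoMYC libraries alone, and so had to differ. Their values are given below as a description, with no test. In the dTAG47 comparison 0 of 100 rose or fell, where 4 and 3 had an unadjusted p below 0.05 and DESeq2 called 0. With a factor for replicates 1 and 2 against 3 and 4, chosen after seeing the data, 1 Kelch-like gene, 1 motile cilium gene and 1 partner of PLCL1 were called lower, beside 374 genes called higher and 420 lower in the whole table.

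The closest paralogs of the 4 genes were not silent with EGFP, with the exception of KLHL4. PIANP, which resembles AJAP1 and like it binds the GABAB receptor, went from 30.7 ± 3.37 CPM in the EGFP libraries to 43.4 ± 3.02 CPM in the OmoMYC libraries (SD, n = 3) and rose by 0.49 ± 0.10 (log2, SE, adjusted p = 0.0018). PLCL2, the other catalytically inactive relative, fell from 31.7 ± 2.65 to 25.9 ± 1.54 CPM (log2 fold change -0.31 ± 0.09, adjusted p = 0.016). VWA3B had 5 to 13 counts with EGFP and 19 to 23 with OmoMYC (0.92 ± 0.36, adjusted p = 0.052). KLHL5 rose from 21.4 ± 2.11 to 42.5 ± 0.482 CPM (0.97 ± 0.09, adjusted p = 1.4e-05), and KLHL4 stayed below the filter, with 5 to 6 counts with EGFP and 3 to 10 with OmoMYC. The 4 tested paralogs thus lay between -0.31 and 0.97 on the log2 scale.

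In the Kelch-like family, many of whose members bring substrates to cullin 3 ubiquitin ligases, 10 of 28 tested genes rose, 9 without KLHL30, and 3 fell. The median change was 0.13 on the log2 scale, against 0.01 over all genes. The 3 that fell were 5 without EGFP replicate 3. KLHL30 had 2 to 5 counts with EGFP and 76 to 95 with OmoMYC, and belonged to the 87 silent genes with a ratio over 10. KLHL32 rose from 1.41 ± 0.101 to 4.73 ± 0.454 CPM and KLHL24, an adaptor that marks keratin for degradation, from 109 ± 17.8 to 210 ± 5.90 CPM. KLHL23 (-0.40 ± 0.09) and KLHL8 (-0.31 ± 0.08) fell. Of the partners of KLHL1, RBX1, the RING subunit of cullin ligases, fell by 0.61 (SE 0.18, adjusted p = 0.014), a call that was lost without OmoMYC replicate 3, and 2 of the 4 genes were called lower without EGFP replicate 1 or EGFP replicate 3. CUL3, the T-type calcium channel CACNA1H and the P/Q-type channel CACNA1A did not pass, at -0.18, -0.11 and 0.26 on the log2 scale (adjusted p = 0.067, 0.35 and 0.45), so 0 of the 4 tested rose, 0 of them also at an unadjusted p below 0.05 and with DESeq2.

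Of 13 phospholipase C genes, 3 rose and 3 fell, with a median of 0.09. PLCH1 (7.499 ± 0.414 to 3.53 ± 0.643 CPM) and PLCH2 (16.2 ± 2.11 to 8.42 ± 1.36 CPM) fell most, and PLCB2, PLCD1 and PLCB4 rose by 0.55, 0.50 and 0.24. The number that rose went from 0 without OmoMYC replicate 1 to 5 without EGFP replicate 3, and it was 1 without each of the other libraries. Of the 13 partners of PLCL1, 4 rose, 3 without GABRB1, and 5 fell, and the 4 that rose were 2 without OmoMYC replicate 1 or OmoMYC replicate 3. GABRB1, a GABAA receptor subunit, had 2 to 8 counts with EGFP and 54 to 79 with OmoMYC. Another subunit, GABRB2, fell by 0.50. GABARAP, which links these receptors to transport, rose by 0.34. The catalytic subunits of protein phosphatase 1 went different ways, as PPP1CA rose by 0.38 and PPP1CB and PPP1CC fell by 0.61 and 0.52.

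Of the 11 tested partners of AJAP1 at adherens junctions and the GABAB receptor, 5 rose and 3 fell, with a median of 0.14. The neuronal cadherin CDH2 rose from 119 ± 0.736 to 199 ± 0.696 CPM and the alpha-catenin CTNNA2 from 16.5 ± 0.935 to 34.95 ± 1.13 CPM (adjusted p = 7e-06 and 4e-06). GABBR2, a subunit of the GABAB receptor, fell by 0.61 ± 0.09 and its auxiliary subunit KCTD12 by 0.66 ± 0.08. The epithelial cadherin CDH1, to whose complexes AJAP1 was first linked, was below the filter with 0 to 1 counts with EGFP and 3 to 5 with OmoMYC. JUP, with 0 to 2 and 5 to 10 counts, and the 3 entries of GABBR1 were below it as well. CTNNB1 did not pass the test (0.05 ± 0.07, adjusted p = 0.56).

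The last lists relate to VWA3A. Of 12 tested genes with von Willebrand factor A domains, 2 rose and 3 fell, with a median of -0.03. VWA5B2 rose from 31.0 ± 3.77 to 71.2 ± 1.89 CPM and VWA1 from 4.34 ± 0.351 to 9.13 ± 0.977 CPM, and COCH fell by 0.67 ± 0.09. Of 18 genes of motile cilia, 7 rose, 6 without FOXJ1, and 3 fell, with a median of 0.15, and the 3 that fell were 1 when EGFP replicate 2, OmoMYC replicate 1 or OmoMYC replicate 3 was left out. FOXJ1, the transcription factor of motile ciliogenesis, had 0 to 3 counts with EGFP and 15 to 26 with OmoMYC, or 0.654 ± 0.145 CPM. SPAG6 and DNAH9, parts of the axoneme, rose by 1.45 ± 0.24 and 1.01 ± 0.17, to 1.37 ± 0.125 and 2.69 ± 0.315 CPM. CCNO and DNAH11 fell by 1.23 and 0.98, while MCIDAS, which acts upstream of FOXJ1, had 1.96 ± 0.247 and 1.74 ± 0.310 CPM (adjusted p = 0.42).

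**Figure D5:**
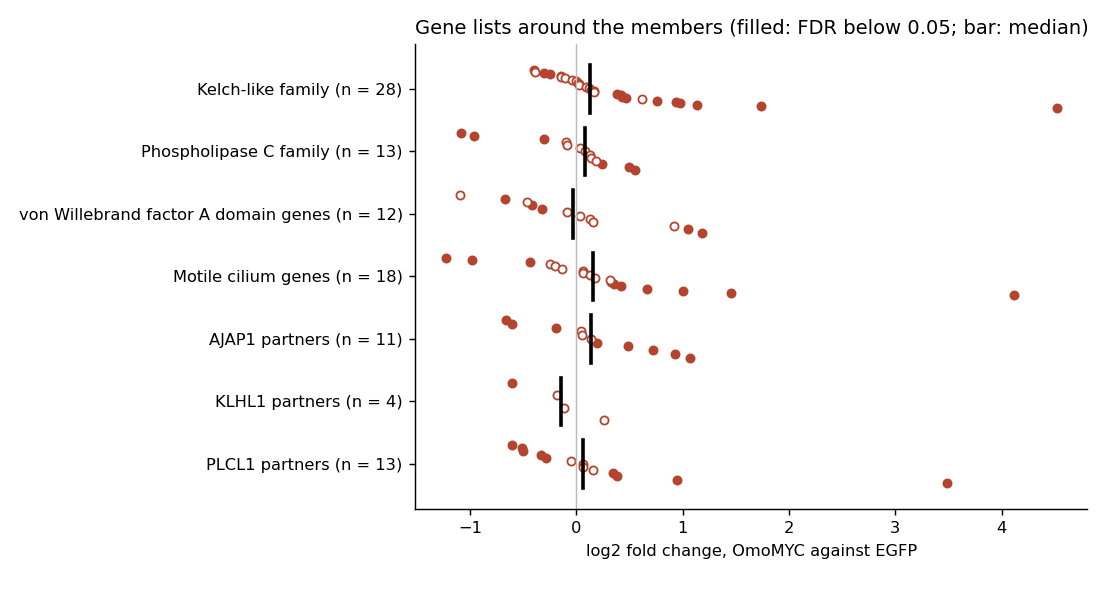
Log2 fold change, OmoMYC against EGFP, of every tested gene in the 7 lists, with the median as a bar and filled points for an FDR below 0.05. The medians lie between -0.15 and 0.15, and KLHL30 (4.52), FOXJ1 (4.11) and GABRB1 (3.49), which passed the filter through their OmoMYC libraries alone, stand to the right of all others.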

How the data were processed

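Reads had been trimmed (Cutadapt), aligned (STAR, hg19) and assigned to genes (featureCounts) by the authors. Whole-number counts without normalization were deposited. Versions, the annotation and strandedness are not given in the sources used here. All 14 libraries (28060817 to 53451641 counts) were used, grouped by their labels. Counts were filtered with filterByExpr, TMM-scaled and tested with edgeR 4.0.16 (robust quasi-likelihood, R 4.3.3, Benjamini-Hochberg FDR 0.05) within each table. The script was tested on simulated data. DESeq2 1.42.0, RLE factors, no filter, a replicate block, left-out libraries and other limits for silent genes were alternatives. Exact tests and intervals used scipy 1.17.1. Positions and exon lengths come from GENCODE v44 lifted to GRCh37 (hg19), with 16960 and 18616 of the identifiers found. GABBR1, which has 3 entries in the engineered lines' table, was counted by entry. Motifs were searched in the RefSeq promoter table.

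The 4 genes and the lists were chosen with earlier results of these data known. Named were the 4 genes, their paralogs, 3 neighbours on each side and further genes within 1 Mb. Also named were the 5 genes next below the limit on the ratio and the 3 genes most alike in pattern. MYC and MYCN, some cell type markers, and the list genes with the largest called changes or a named role were named as well. The study's methods call the cultures biological replicates. Some genes that these rules name are not reported here. P-values set a group difference against the spread between these libraries, and do not cover the spread between separately transduced lines.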

Additional observations from a re-analysis of the deposited data

Results flagged for a closer look

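In dTAG47 replicate 2, KLHL1 had 2 counts, or 0.0374 CPM, while the other 3 dTAG47 libraries had 0. That library stands apart from its group by 2 counts. In a group at 0, any library with a count would.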

How the results depend on the processing

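In the OmoMYC comparison, where the choice of the 4 genes fixes the direction, leaving out 1 library moved the fitted log2 fold change of AJAP1 from 10.07 (without EGFP replicate 1) to 12.52 (without EGFP replicate 3), of VWA3A from 9.04 to 10.79 (the latter without EGFP replicate 3), of KLHL1 from 9.04 (without EGFP replicate 3) to 11.43 (without EGFP replicate 1), and of PLCL1 from 7.996 to 8.23. At the high values of AJAP1 and KLHL1 the EGFP group is left with 0 counts, and the fitted value follows the prior count. The number of silent genes with a ratio over 10 was 56 with 1 count added in place of 0.5, and the reverse number was then 0. Leaving out 1 library gave a reverse number of 3 to 6, with the highest without OmoMYC replicate 3. Over 100-fold the number of genes ranged from 5 to 8, and it was 7 with TMM-scaled library sizes, an alternative chosen after seeing the data.

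In the parental cells, DESeq2 called 44 genes higher and 15 lower. A replicate block gave 306 and 362, and a factor for replicates 1 and 2 against 3 and 4, likewise chosen after seeing the data, 374 and 420. With either, 1 Kelch-like gene, 1 motile cilium gene and 1 partner of PLCL1 were called lower. Leaving out 1 library gave 4 to 52 higher and 2 to 32 lower, the most without dTAG47 replicate 2. PLCL1 had a log2 fold change of -0.22 with the replicate block (adjusted p = 0.77), and leaving out 1 library gave -0.39 to 0.18, reversed without DMSO replicate 3. Without DMSO replicate 4 or dTAG47 replicate 3 it did not pass the filter. Same-numbered libraries correlated at -0.07 to 0.292 between EGFP and OmoMYC and at 0.01 to 0.16 between DMSO and dTAG47, so the numbers were not taken to pair the cultures. With the block, the OmoMYC comparison called 4233 genes higher and 3867 lower. Of 322 recounts of called genes in the lists, 300 were within 1.5-fold of the number given or equal to it. The depth limits what can be said of the genes below 10 counts.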
